A study of Homo sapiens with 12 samples.

Results

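The 9 protein-coding genes PPIH, P3H1, C1orf50, SVBP, ERMAP, ZNF691, EBNA1BP2, ELOVL1 and MED8 lie near YBX1 on the short arm of chromosome 1, at 1p34, and their mRNA levels were described after Cas9 had been directed to YBX1. They were chosen by name as genes near YBX1, not by a measured value, and are 9 of the 19755 protein-coding genes in the deposited expression table. A mean rlog value of at least 4 (rlog is a regularized log2 of the normalized read count) was required for a test, and 8 of the 9 met it. C1orf50 did not. The filter left 10982 genes of the whole table.

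MOLM13, an established human line of acute myeloid leukemia, was made to express Cas9 stably and was selected with blasticidin at 5 µg/ml. All 3 groups carried Cas9 and received a lentiviral pUSEPR vector with a puromycin resistance and a red fluorescent marker (RFP). The vector brought either no YBX1 guide (control) or a single guide RNA against YBX1, sgRNA1 or sgRNA2, and 4 libraries were made in each group, numbered 1 to 4. For the control the labels give 2 names, empty vector in one field and non-targeting sgRNA vector in another. Cells were held in puromycin at 1 µg/ml, sorted for high RFP and taken 7 days after transduction. Polyadenylated RNA was read as paired ends of 37 bases. The sorted cells were a pool of edited cells and not a clone. Since neither control vector cuts at YBX1, an effect of the DNA break and an effect of the loss of YBX1 cannot be told apart in the comparison with control. The labels do not say whether libraries of a group came from separate cultures, so p-values measure only the spread between these libraries, which may be technical.

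The product of YBX1 has a cold-shock domain, binds RNA and DNA and takes its name from the Y box, an inverted CCAAT sequence. Cas9 breaks both strands of DNA at the site of its guide, and repair by end joining mostly leaves small insertions or deletions there, which can disrupt the reading frame and expose the mRNA to decay. Larger deletions or the loss of a chromosome piece beyond the break occur in a part of cells, and neighboring genes would then be read at a lower level, which is why the genes on both sides of YBX1 were examined.

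In the GENCODE 29 annotation of GRCh38, the 9 genes span 731 kb. YBX1 itself (ENSG00000065978.18) occupies chr1:42682427-42702349 on the plus strand. PPIH (ENSG00000171960.10, chr1:42658425-42676758, plus strand) is the only one of them on the telomere side, and its annotated end lies 5668 bases before the YBX1 start. P3H1 (ENSG00000117385.15, chr1:42746335-42767084, minus strand) and C1orf50 (ENSG00000164008.14, chr1:42767269-42779488, plus strand) are divergent genes whose starts are separated by 184 bases. SVBP (ENSG00000177868.11, chr1:42807052-42817252, minus strand) and ERMAP (ENSG00000164010.13, chr1:42817088-42844993, plus strand) are divergent too, and their first parts overlap by 165 bases. ZNF691 (ENSG00000164011.17, chr1:42846573-42852477, plus strand) follows at 164 kb from the YBX1 start. The remaining genes stand farther off on the centromere side: EBNA1BP2 (ENSG00000117395.12, chr1:43164175-43270936, minus strand), ELOVL1 (ENSG00000066322.14, chr1:43363397-43368074, minus strand) and MED8 (ENSG00000159479.16, chr1:43383917-43389808, minus strand). The outermost annotated start of EBNA1BP2 was 589 kb from YBX1 in GENCODE, whereas a RefSeq start of the gene lay at 490 kb.

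Some of these genes share exon sequence with another gene, and the library kit does not mark strand, so reads there could not be assigned with certainty. The share of exon bases that also belong to another annotated gene was 38.9% for PPIH, all of it with the antisense gene AC098484.4. It was 28.2% for C1orf50, 20.5% for EBNA1BP2, 9.40% for ERMAP and 9.02% for SVBP, while MED8 and ELOVL1 had 5.14% and 2.71%. EBNA1BP2 shared 668 exon bases with CFAP57 on the opposite strand, and CFAP57 itself had a mean rlog value of -2.21. P3H1, ZNF691 and YBX1 shared none. This share was largest for PPIH, C1orf50 and EBNA1BP2. Whether reads of shared bases were counted for a gene or left out is not known, and how many there were was not measured. AC098484.3, which shares exon bases with C1orf50, had a mean rlog value of -1.97.

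Promoter sequence from RefSeq (GRCh38.p14; windows from 250 bases before to 50 bases after a gene start) was found for 8 of the 9 genes; MED8 had none. It was searched on both strands for CCAAT (the core of the Y box), for GGGCGG (a GC box) and for CCGGAA (an ETS-type core), and counts below include matches of either strand. Over 10 windows of the 8 genes, CCAAT was present in 5, GGGCGG in 8 and CCGGAA in 3. Among all 35116 promoter windows of the table the shares were 34.6%, 45.0% and 17.2%. Windows of P3H1 and C1orf50 overlap and hold the same GC boxes. The stretch between the RefSeq starts of P3H1 and C1orf50 (chr1:42767029-42767248, plus strand) is shown because it lies between the starts of both genes, which differed widely in level, and the 250 bases before PPIH (chr1:42658173-42658422, plus strand) because PPIH is closest to YBX1. The 250 bases before ZNF691 (chr1:42846363-42846612, plus strand) hold 3 CCAAT matches, and those before ELOVL1 (chr1:43368012-43368261, minus strand) belong to the only neighbor whose sgRNA1 libraries did not overlap control. Capitals mark matches of the 3 motifs on either strand, with a GC box and a CCAAT overlapping in ELOVL1 and a CCGGAA match and a GC box side by side in PPIH.
P3H1 to C1orf50: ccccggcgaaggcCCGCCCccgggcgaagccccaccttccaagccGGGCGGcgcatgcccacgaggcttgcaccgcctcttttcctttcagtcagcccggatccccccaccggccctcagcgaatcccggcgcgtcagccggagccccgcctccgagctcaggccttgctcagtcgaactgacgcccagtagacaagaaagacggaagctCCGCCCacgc
PPIH: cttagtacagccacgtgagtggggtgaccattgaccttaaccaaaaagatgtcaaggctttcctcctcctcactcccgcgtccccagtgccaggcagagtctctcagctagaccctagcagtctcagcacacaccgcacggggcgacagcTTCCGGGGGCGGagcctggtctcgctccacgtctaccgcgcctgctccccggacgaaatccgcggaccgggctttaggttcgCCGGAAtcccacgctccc
ZNF691: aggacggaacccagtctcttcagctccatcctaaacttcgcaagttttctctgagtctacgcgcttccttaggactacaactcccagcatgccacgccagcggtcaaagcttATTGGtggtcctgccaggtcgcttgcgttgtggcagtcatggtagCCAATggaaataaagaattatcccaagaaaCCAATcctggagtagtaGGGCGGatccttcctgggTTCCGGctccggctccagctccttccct
ELOVL1: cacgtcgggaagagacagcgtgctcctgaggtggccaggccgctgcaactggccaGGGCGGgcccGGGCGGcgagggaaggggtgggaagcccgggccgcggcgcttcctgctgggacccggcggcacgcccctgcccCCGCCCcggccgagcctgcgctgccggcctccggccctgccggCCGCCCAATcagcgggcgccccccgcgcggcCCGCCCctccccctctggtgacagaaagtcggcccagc
The bases before P3H1 and C1orf50 held GC boxes and neither of the other motifs. A match is a description of these letters and does not show that a factor binds there.

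The targeted gene was read first. YBX1 had rlog values of 12.91, 12.96, 12.76 and 12.81 in control libraries 1 to 4, of 11.20, 11.38, 11.08 and 11.09 with sgRNA1, and of 11.93, 12.07, 11.83 and 11.89 with sgRNA2. The groups did not overlap. For both guides against control YBX1 fell by 1.30 on the log2 scale (SE 0.179, limma with Benjamini-Hochberg adjustment, adjusted p = 0.00777). Its difference was -1.67 with sgRNA1 (SE 0.0755, adjusted p = 3.78e-08 by limma) and -0.93 with sgRNA2 (adjusted p = 8.95e-05 by limma). The difference of 0.75 between the guides was beyond the spread as well (adjusted p = 0.00133 by limma). YBX1 was lowest in all 4 sgRNA1 libraries, so the guides left its mRNA at different levels. How often each guide cut was not measured, and the mRNA level does not give it. Of the markers of myeloid leukemia cells, 11 of 12 had a mean rlog value of at least 4, FLT3 and CEBPA among them, and the 4 T-cell markers in the table were all under 1. Of the lists for other cells, 2 of 4 epithelial genes (KRT8 and KRT18) and 0 of 4 fibroblast genes reached 4. The summed log2 level of the myeloid markers lay between 13.87 and 14.12 in control, 13.98 and 14.13 with sgRNA1, and 14.04 and 14.15 with sgRNA2. The table holds no read totals and library depth is therefore unknown, and in bulk RNA fewer cells of a kind and less RNA per cell cannot be told apart.

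When both guides were compared with control, no difference was called in a neighbor (0 of 8 tested, by limma at an adjusted p under 0.05; 0.1% of all genes tested were called). At an unadjusted p under 0.05, 1 of the 8 passed, ELOVL1, against 7.48% of all genes. Differences ran from -0.11 for SVBP to 0.04 for MED8 and adjusted p-values from 0.647 to 0.976. The 95% confidence intervals of all 8 genes together reached from -0.23 to 0.14 on the log2 scale, which corresponds to a change from control between -14.5% and 10.1%. YBX1 in the same fit had an interval from -1.68 to -0.92. That fit pools the guides, so for YBX1 the difference between the guides counts as spread and widens the interval. Of the 8 differences 6 were below 0, as were 53.6% of those of all genes, and the median was -0.04 against -0.01 over all genes tested.

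Each guide on its own gave the same count. With sgRNA1, 0 of 8 neighbors were called (0.0455% of all genes), and 1 passed an unadjusted p under 0.05 (5.5% of all genes), again ELOVL1. Their intervals reached from -0.27 to 0.16. With sgRNA2, 0 of 8 were called (0.0364% of all genes), none passed at an unadjusted p under 0.05 (5.35% of all genes), and intervals reached from -0.23 to 0.17. The median difference was -0.06 with sgRNA1 and -0.03 with sgRNA2, both comparisons sharing the control libraries. Between the guides, which left YBX1 at different levels, 0 of 8 neighbors were called (0.00911% of all genes), 0 passed an unadjusted p under 0.05 (0.838% of all genes), and intervals reached from -0.15 to 0.18.

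Libraries of the same number deviated from their group means together, so a fit with the number as a block was also made. It called many more genes of the whole table but again 0 of the 8 neighbors, for both guides (5.4% of all genes), for sgRNA1 (3.21%), for sgRNA2 (3.95%) and between the guides (0.00911%). At an unadjusted p under 0.05 it passed SVBP and ELOVL1 for both guides (2 of 8, against 20.1% of all genes) and for sgRNA1 (2 of 8, against 16.8%), 0 of 8 for sgRNA2 (19.1%) and 0 of 8 between the guides (6.83%). The intervals of the 8 genes together reached from -0.22 to 0.13 for both guides, -0.25 to 0.15 for sgRNA1 and -0.21 to 0.15 for sgRNA2.

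**Figure D1:**
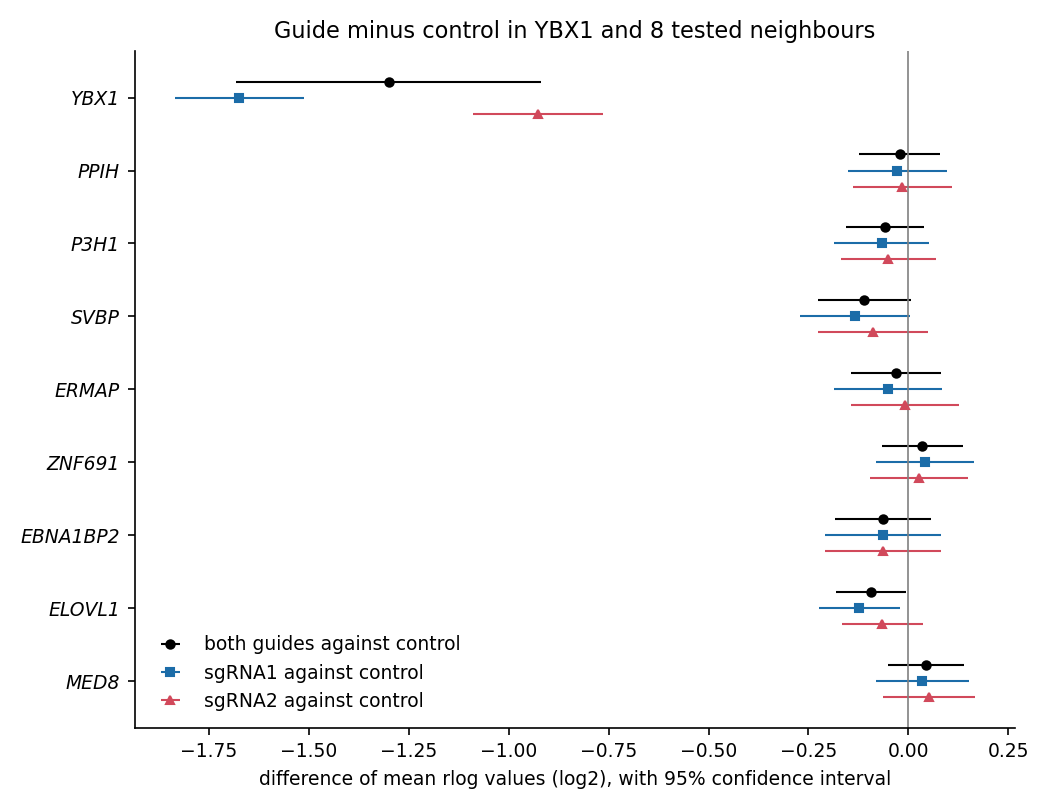
Differences of mean rlog values between guide and control (x axis, log2 scale) for YBX1 and the 8 tested neighbors, with 95% confidence intervals from limma as bars; circles stand for both guides, squares for sgRNA1 and triangles for sgRNA2. YBX1 lies between -1.67 and -0.93, and all 8 neighbors lie between -0.13 and 0.05.

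PPIH encodes cyclophilin H, a prolyl isomerase of the U4/U6.U5 tri-snRNP of the spliceosome, and is the closest of the 9 genes to YBX1. Its rlog values were 9.87, 9.64, 9.66 and 9.81 in control libraries 1 to 4. They were 9.72, 9.78, 9.65 and 9.72 with sgRNA1, and 9.70, 9.69, 9.76 and 9.76 with sgRNA2. All guide libraries sat within the range of the control libraries, which were the most widely spread group (SD 0.115, n = 4, against 0.054 and 0.037). The difference for both guides was -0.02 (95% interval -0.12 to 0.08, adjusted p = 0.976 by limma), or a change between -8.23% and 5.73%. Compared with the control of the same number, PPIH was lower in 5 of 8 guide libraries.

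P3H1 encodes prolyl 3-hydroxylase 1, which modifies collagen chains in the endoplasmic reticulum in a complex with CRTAP and cyclophilin B. Control libraries had 9.14, 9.21, 9.18 and 9.29, sgRNA1 libraries 9.12, 9.16, 9.09 and 9.18, and sgRNA2 libraries 9.04, 9.17, 9.27 and 9.13. The groups overlapped, and the value of 9.27 in sgRNA2 library 3 was above all but 1 control library. Both guides together differed from control by -0.06 (SE 0.046, interval -0.16 to 0.04, adjusted p = 0.876 by limma). P3H1 was below the control of the same number in 7 of 8 guide libraries, a count of 7 or more that 15.9% of all genes tested also reached.

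C1orf50, an open reading frame across the shared promoter from P3H1, had a mean rlog value of 2.39 and stayed below the filter. Its values were 2.39, 2.42, 2.38 and 2.33 in control, 2.38, 2.36, 2.46 and 2.40 with sgRNA1, and 2.38, 2.42, 2.36 and 2.40 with sgRNA2. The groups overlapped. In the fit without a filter the difference for both guides was 0.02 (interval -0.03 to 0.07, adjusted p = 0.912 by limma), and the rlog transformation draws the libraries of such a low gene toward each other, so the interval is narrower than the reads would allow.

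SVBP encodes the small vasohibin binding protein, the partner that the vasohibins need to remove the last tyrosine of alpha-tubulin. It had the lowest difference of the 8 genes for both guides, -0.11 (SE 0.054, interval -0.23 to 0.01, adjusted p = 0.687 by limma), a change of -7.37%. Values were 6.31, 6.23, 6.09 and 6.13 in control libraries 1 to 4, 5.92, 6.13, 6.06 and 6.12 with sgRNA1, and 6.01, 6.08, 6.16 and 6.16 with sgRNA2. The gap rested on the first 2 numbers. In number 1 SVBP differed from the control library by -0.39 with sgRNA1 and -0.30 with sgRNA2, in number 2 by -0.10 and -0.15, and in numbers 3 and 4 the differences lay between -0.03 and 0.08. With numbers 1 and 2 alone the difference was -0.24 and with numbers 3 and 4 alone 0.01. When the number was also a block, a fit chosen after seeing the data, SVBP was called in numbers 1 and 2 (adjusted p = 0.0135 by limma, with 8.64% of all genes called) and not in numbers 3 and 4 (adjusted p = 0.962).

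ERMAP encodes a membrane protein of erythroid cells that carries the Scianna blood group. It gave 7.12, 7.07, 7.11 and 7.03 in control, 7.18, 6.86, 7.06 and 7.03 with sgRNA1, and 7.11, 7.01, 7.08 and 7.09 with sgRNA2. Library 2 of sgRNA1 was the lowest and library 1 of sgRNA1 the highest of all 12, so the largest spread of this gene lay within one group (SD 0.133, n = 4). The difference for both guides was -0.03 (interval -0.14 to 0.08, adjusted p = 0.967 by limma). Erythroid genes fixed beside ERMAP were otherwise near the floor: of 14 listed, EPOR alone passed the filter (difference -0.03, SE 0.108), and all 5 erythroid markers had a mean rlog value under 1.

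ZNF691 encodes a zinc finger protein and gave 6.39, 6.29, 6.24 and 6.35 in control. Its values were 6.24, 6.44, 6.41 and 6.34 with sgRNA1 and 6.37, 6.28, 6.42 and 6.31 with sgRNA2. The groups overlapped over almost their whole range. The difference for both guides was 0.03 (interval -0.07 to 0.14, adjusted p = 0.953 by limma).

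**Figure D2:**
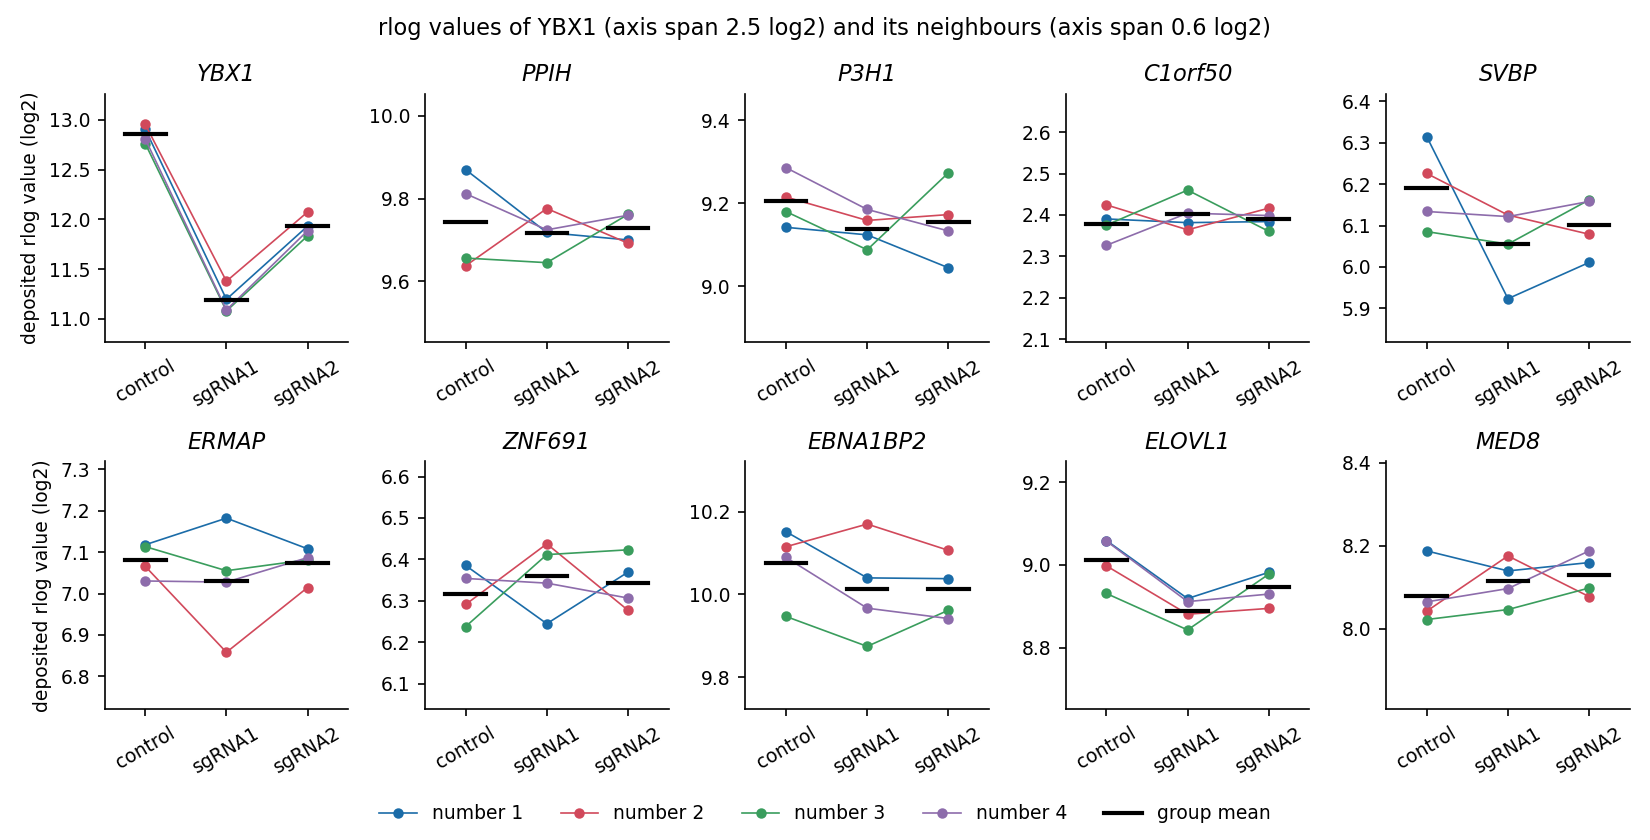
Deposited rlog values (y axis, log2 scale) of YBX1 and the 9 neighbors in the control, sgRNA1 and sgRNA2 groups; points are libraries, lines join libraries of the same number, and black bars are group means. YBX1 falls from between 12.76 and 12.96 to at most 11.38 with sgRNA1, while SVBP differs from the control library by -0.39 and -0.30 in number 1 and ELOVL1 is below every control library with sgRNA1.

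EBNA1BP2 encodes a nucleolar protein needed for the assembly of the large ribosomal subunit. Its values were 10.15, 10.12, 9.95 and 10.09 in control, 10.04, 10.17, 9.87 and 9.97 with sgRNA1, and 10.04, 10.11, 9.96 and 9.94 with sgRNA2. The mean of numbers 3 and 4 over all groups minus that of numbers 1 and 2 was -0.14, which was larger in size than the difference between guides and control (-0.06, interval -0.18 to 0.06, adjusted p = 0.893 by limma). The groups overlapped.

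ELOVL1 encodes an elongase that lengthens saturated fatty acids to very long chains. It had 9.06, 8.998, 8.93 and 9.06 in control libraries 1 to 4, 8.92, 8.88, 8.84 and 8.91 with sgRNA1, and 8.98, 8.89, 8.98 and 8.93 with sgRNA2. All sgRNA1 libraries were below all control libraries, with a gap between 8.92 and 8.93, whereas sgRNA2 overlapped control. Of all genes tested, 3.14% had sgRNA1 and control libraries that did not overlap, 1.9% with sgRNA1 lower. The difference with sgRNA1 was -0.12 (SE 0.047, interval -0.23 to -0.02), a change of -8.16%, with an unadjusted p of 0.0216 and an adjusted p of 0.805 by limma. The exact permutation test over the libraries gave p = 0.0286 (two-sided, not adjusted), the smallest that 4 against 4 allows, and 0.0121 for both guides. With sgRNA2 it was -0.07 (interval -0.17 to 0.04, adjusted p = 0.985 by limma), and the difference between the guides was 0.06 (interval -0.04 to 0.16). ELOVL1 was below the control of the same number in 7 of 8 guide libraries, the exception being sgRNA2 library 3, which was 0.05 higher. When that library was left out of the blocked fit, ELOVL1 was called for both guides (-0.11, adjusted p = 0.0326 by limma), as were 9.26% of all genes. Over all 12 libraries left out in turn its adjusted p with the block ran from 0.0326 to 0.353.

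MED8 encodes a subunit of the head of Mediator, the complex that links transcription factors to RNA polymerase II. It gave 8.19, 8.04, 8.02 and 8.06 in control, 8.14, 8.18, 8.05 and 8.10 with sgRNA1, and 8.16, 8.08, 8.10 and 8.19 with sgRNA2. It was the tested neighbor with the highest difference for both guides, 0.04 (interval -0.05 to 0.14, adjusted p = 0.919 by limma), and guide libraries were below their control in 2 of 8 comparisons. The groups overlapped.

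The 8 tested neighbors were also read library by library. Their median difference from the control of the same number was -0.13, -0.00, -0.04 and -0.05 in sgRNA1 libraries 1 to 4, and -0.09, -0.03, 0.08 and -0.05 in sgRNA2 libraries 1 to 4. YBX1 in the same pairs differed by -1.71, -1.58, -1.69 and -1.72 with sgRNA1 and by -0.98, -0.88, -0.93 and -0.92 with sgRNA2. With each guide the lowest median was that of library 1. Both of these medians subtract the same control library 1, so they are not independent of each other. In sgRNA2 library 3 only 1 of 8 neighbors was below control, and in sgRNA2 library 1 all 8 were. The medians of all genes tested stayed between -0.01 and 0.00 in these pairs.

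**Figure D3:**
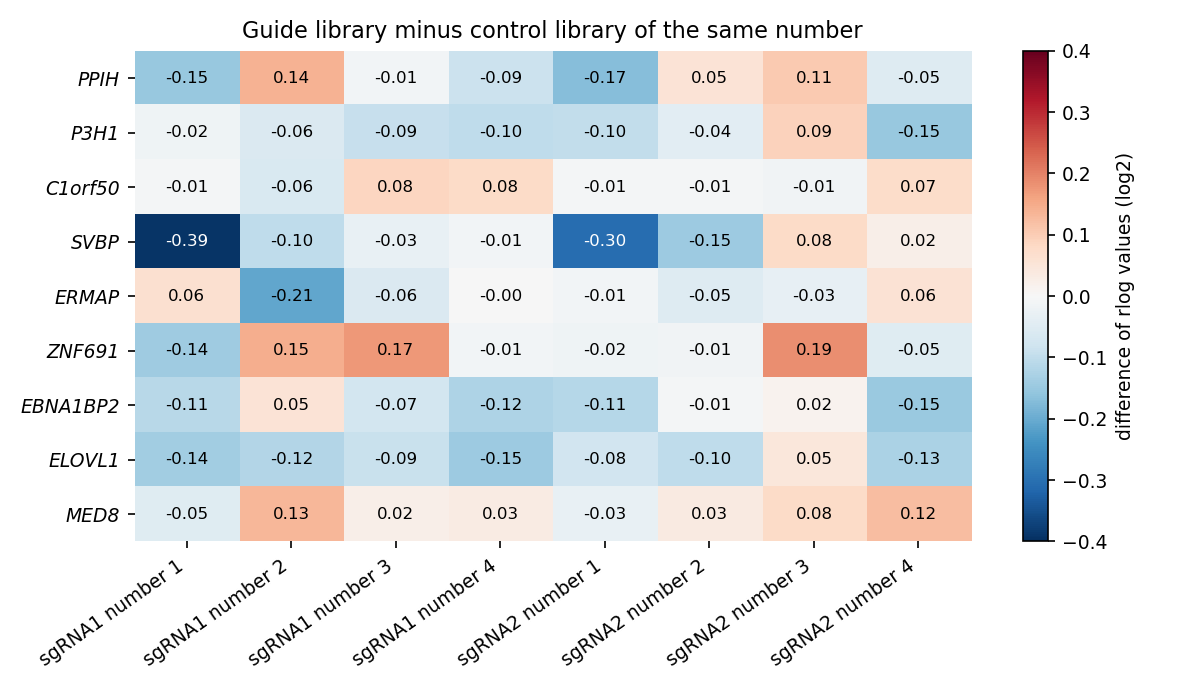
Difference of rlog values (log2 scale, color from -0.4 to 0.4 and printed in each cell) between each guide library and the control library of the same number, for the 9 neighbors (rows) and 8 guide libraries (columns). SVBP reaches -0.39 and -0.30 in number 1 of both guides, and ELOVL1 is below 0 in 7 of 8 columns.

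Per kilobase of annotated exon, the levels of the neighbors were all below YBX1 (mean rlog minus log2 of exon length in kb, 11.91 in control). PPIH was the highest at 9.21, followed by EBNA1BP2 at 8.24, ELOVL1 at 7.69, MED8 at 6.64, P3H1 at 6.45, SVBP at 5.92, ZNF691 at 5.29, ERMAP at 4.56 and C1orf50 at -0.02. The ranges of the 4 control libraries overlapped in 0 of the 8 pairs that follow each other in this order, the narrowest gap being 0.06 between MED8 and P3H1. The spread of libraries does not cover an error in the exon length, on which the order also rests. Before this scaling P3H1 (9.21 in control, 6766 exon bases) was above MED8 (8.08, 2704 exon bases). P3H1 and C1orf50, which start 184 bases apart, stood 6.46 apart on this scale.

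Beyond the 9 genes, 23 other protein-coding genes start within 1 Mb of YBX1. Of these, 8 passed the filter, CDC20, SLC2A1 and KDM4A among them, and 0 were called in any of the 4 comparisons with or without the block. CDC20, an activator of the anaphase-promoting complex whose end lies 193 bases from that of ELOVL1, had a difference of -0.14 for both guides (interval -0.40 to 0.11, adjusted p = 0.886 by limma; 0.0507 with the block). On the telomere side CCDC30, next to PPIH, was too low to test (mean rlog value 3.59), as was CLDN19 between YBX1 and P3H1 (0.11).

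By distance from the YBX1 start, the median difference for both guides was -0.03 over the 6 tested genes under 0.25 Mb, 5 of which are neighbors described here, 0.02 over 10 genes from 0.25 to 1 Mb and -0.01 over 80 genes from 1 to 5 Mb. It was -0.00 over 296 genes on the telomere side of the short arm. On the centromere side it was -0.02 over 226 genes, on the long arm -0.01 over 503, and over all genes tested -0.01. None of these windows held a called gene without the block. With the block, 0 of 6 and 0 of 10 genes were called in the nearest windows, 7 of 80 (8.75%) from 1 to 5 Mb, 16 of 296 (5.41%) on the telomere side, 8 of 226 (3.54%) on the centromere side and 34 of 503 (6.76%) on the long arm, against 5.4% of all genes.

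**Figure D4:**
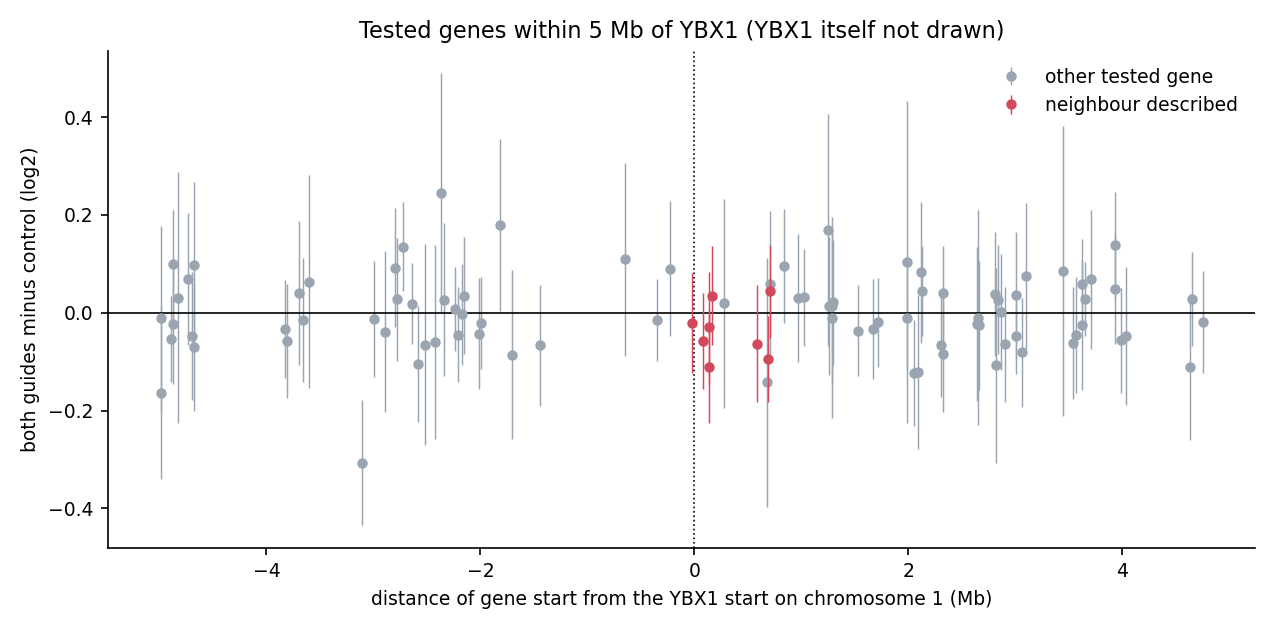
Difference between both guides and control (y axis, log2 scale, with 95% confidence intervals) of the 96 tested genes within 5 Mb of YBX1 against the distance of their start from the YBX1 start (x axis, Mb; negative is toward the telomere); the 8 tested neighbors are red and YBX1 is not drawn. The neighbors lie between -0.11 and 0.04, inside the range of -0.31 to 0.25 of all genes drawn.

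Genes whose products work with the neighbors were described by counts. Of 14 tri-snRNP proteins that act with PPIH, 14 were tested and 0 were called with or without the block, with a median of -0.03 for both guides and a range from -0.08 for PRPF6 to 0.01 for SNRNP40. Of 30 Mediator subunits and kinase-module members, 0 were called in either fit (median -0.03; MED27 -0.14, MED26 0.08). Below 0 were 12 of 14 and 25 of 30, against 53.6% of all genes. Of 15 factors of large-subunit assembly listed with EBNA1BP2, 0 were called without the block and 1 fell with it, NOC2L, a nucleolar factor, by 0.14 (SE 0.033, adjusted p = 0.0175 by limma). A share of 1 in 15 is close to the 5.4% of all genes called in that fit.

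For P3H1, 9 of 12 genes of collagen hydroxylation and folding were tested, and 0 were called without the block. With it 2 of 9 fell, against 5.4% of all genes called: SERPINH1, a collagen chaperone, by 0.22 (SE 0.035, adjusted p = 0.00137 by limma) and CRTAP, the direct partner of P3H1, by 0.14 (SE 0.032, adjusted p = 0.0145). PPIB, the third protein of that complex, named after its value was seen, had -0.01 for both guides. For SVBP, 6 of 8 listed genes were tested, and 1 was called with the block, TUBA1C, an alpha-tubulin, which fell by 0.14 (SE 0.039, adjusted p = 0.0470). For ELOVL1, 10 of 13 genes of fatty acid elongation were tested, and 1 was called with the block, HACD3, a dehydratase of the elongation cycle, which rose by 0.17 (SE 0.036, adjusted p = 0.0117). These counts of 1 of 6 and 1 of 10 stand beside 5.4% of all genes called in that fit. Without the block the 4 genes that fell (NOC2L, SERPINH1, CRTAP and TUBA1C) and HACD3 had adjusted p-values from 0.241 to 0.774.

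Over the 12 libraries, the genes whose rlog values ran most alike were listed for PPIH, P3H1, SVBP and ERMAP. None of them was another neighbor. With so few listed of 10982 genes, a neighbor could easily be missing, and no conclusion is drawn from its absence. PPIH was most like R3HCC1 (Pearson r = 0.885), ATF4 (0.875) and NELFCD (0.861), and P3H1 most like TWIST1 (0.899), COX4I1 (0.871) and RPS9 (0.861). SVBP was most like HINT1 (0.906), NPM1 (0.857) and SLC27A2 (0.854), and ERMAP most like NDE1 (0.888), RBBP9 (0.853) and XAF1 (0.847). Once group and number had been removed, the most alike were GLRX5 for PPIH (0.985), FAM98C for P3H1 (0.996), SLC27A2 for SVBP (0.982) and MC1R for ERMAP (0.964). That removal leaves fewer free values per gene than there are libraries, so these r cannot be compared with those before it. All the r given so far are the highest of 10982 genes over 12 libraries that were scaled together, and are a description. Among the 8 tested neighbors themselves, r ran from -0.50 for ERMAP and ZNF691 to 0.64 for PPIH and MED8.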

How the data were processed

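RNA was measured in 12 libraries of MOLM13-Cas9 cells, 4 in each of 3 groups. For these files the authors' processing notes name the build GRCh38 and, without stating their order or use, the aligner STAR 2.7.5a, the read counter HTSeq 0.6.1pl, Picard 2.9.4, bcl2fastq 2.20.0.422, DESeq2 and SAMtools. The table's own name points to a removal of duplicates. Parameters and the annotation release are not given in the sources used here. The values used are the deposited regularized log2 values (rlog) of protein-coding genes, which shrink differences of low genes. A second table of the same values as z-scores and the authors' own fold changes and adjusted p-values were not used.

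Identifiers were matched to GENCODE 29 without their version (99.8% matched), which gave coordinates and exons. The 10982 of 19755 genes whose rlog values averaged 4 or more (3669 genes were constant) were fitted with limma 3.58.1 in R 4.3.3 (lmFit and eBayes with a trend), as a 2-level factor for both guides and as 3 groups otherwise, with Benjamini-Hochberg adjustment over all genes tested and a threshold of 0.05. The script was tested on simulated data. Single genes were also given an exact two-sided permutation test over libraries, in Python 3.11.15. Deviations from the group means correlated between libraries of the same number in all 12 pairs (Pearson r from 0.38 to 0.78; from -0.74 to 0.75 between different numbers), so the replicate number was taken as pairing the libraries, and a fit with it as a block was the other planned fit. Further alternatives were the filter, quantile scaling, the eBayes prior, leaving out each library and a split by number.

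The 9 genes and YBX1 were named as given. Named with values as well were genes within 1 Mb that lie directly beside them or passed the threshold, called genes of partner lists or else their extremes, and the 3 genes most correlated with a neighbor. The genes, the lists and the tests were chosen with earlier results of these data known. The guide target sites were not analysed here. The values of 1 gene within 1 Mb and of 1 marker list are not reported here.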

Additional observations from a re-analysis of the deposited data

How the results depend on the processing

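No neighbor was called in any of the 4 comparisons with a filter at a mean of 6, quantile scaling, another eBayes prior or the replicate block (0 of 8 each), or with no filter, where C1orf50 entered (0 of 9). The block raised the count over all genes from 11 to 593 for both guides, from 5 to 352 for sgRNA1 and from 4 to 434 for sgRNA2. The count of neighbors became 1 (ELOVL1, both guides) when a library was left out with the block, where it ran from 0 to 1 (9.26% of all genes were called in that fit, without sgRNA2 library 3). It became 1 (SVBP) for both guides and 1 for sgRNA1 in numbers 1 and 2 with the block, a fit added after seeing the data (8.64% and 6.92% of all genes called). Without the block YBX1 was not called for both guides in numbers 1 and 2 alone (-1.29, adjusted p = 0.115 by limma). In that pooled fit the difference between the guides counts as spread.

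The sign of some differences turned, for SVBP from -0.11 for both guides and -0.09 for sgRNA2. In numbers 3 and 4 alone, with or without the block, SVBP had 0.015 for both guides and 0.050 for sgRNA2, PPIH 0.027 and ERMAP 0.012 for sgRNA2, and EBNA1BP2 0.031 between the guides. In numbers 1 and 2 alone ZNF691 had -0.0060 for both guides and -0.015 for sgRNA2, and between the guides PPIH had -0.051, P3H1 -0.033 and MED8 -0.039. Quantile scaling gave PPIH 8.8e-05 for sgRNA2 and EBNA1BP2 0.0050 between the guides. With a library left out, with or without the block, the difference for both guides ranged from -0.061 to 0.025 for PPIH, -0.049 to 0.0030 for ERMAP and -0.014 to 0.072 for ZNF691. Ranges for sgRNA1 were -0.072 to 0.018 for PPIH, -0.10 to 0.0065 for ERMAP, -0.0063 to 0.096 for ZNF691 and -0.00014 to 0.071 for MED8. Ranges for sgRNA2 were -0.055 to 0.031 for PPIH, -0.028 to 0.024 for ERMAP and -0.021 to 0.065 for ZNF691. Between the guides they were -0.025 to 0.056 for PPIH, -0.035 to 0.054 for P3H1, -0.0037 to 0.077 for SVBP, -0.016 to 0.092 for ERMAP, -0.069 to 0.027 for ZNF691, -0.047 to 0.052 for EBNA1BP2 and -0.0082 to 0.052 for MED8. Sign and call were kept in 1042 repeated fits or tests of single neighbors, the sign turned in 73, and 5 newly passed 0.05. Of those 5, 2 were permutation tests of ELOVL1 without adjustment, and the others were the blocked fits named above. The 2 are not new on an unadjusted scale. ELOVL1 already had an unadjusted p of 0.0375 for both guides and 0.0216 for sgRNA1 by limma without the block. The 1042 are not independent checks. The block over all 12 libraries, the filters, the eBayes priors and the permutation test leave the difference itself unchanged, so its sign could not turn there.

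With 4 libraries a group, the outermost bounds of the neighbors' intervals leave room for changes from -14.5% to 10.1% for both guides. For sgRNA1 alone they were -17.1% and 12.1%, and for sgRNA2 alone -14.4% and 12.3%. Each interval was made for a single gene, so these bounds do not cover all the neighbors jointly. They rest on rlog values, which shrink differences of low genes. The depth of the libraries is unknown.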
